A study of Mus musculus with 610 samples.

Results

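Smo encodes Smoothened, the membrane protein that passes the Hedgehog signal into the cell. In this study it was 1 of 48 assays read by quantitative PCR in 610 single cells sorted from mouse thymus, and its assay gave a signal in 225 of them. The assay was taken by its name in the deposited table. The gene lies at chr6:29735497-29761366 in the RefSeq annotation of GRCm38.p6.

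Hedgehog signalling starts when a secreted ligand binds the receptor Patched. Unbound Patched holds Smoothened inactive, and its release lets Smoothened act on the Gli transcription factors. In the thymus, Hedgehog ligands come at least in part from stromal cells. The pathway is known for its part in the earliest double negative (DN) thymocytes, which carry neither CD4 nor CD8. Of a list of 15 Hedgehog pathway genes, Smo was the only one in the panel, with 0 others, so neither ligands, Patched nor Gli targets could be set beside it.

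The study was about the thymic progenitors of Tgd17 cells, gamma delta T cells that secrete the cytokine interleukin 17. All 4 groups were live thymus cells without surface TCR delta or other lineage markers and with CD44. Tcrd-/- DN1d cells came from B6.129P2-Tcrd tm1Mom mice, a strain that lacks gamma delta T cells, and were CD25-, CD24+ and cKit- (postnatal days 7 to 10, 1 capture run, 86 cells). DN2 cells came from C57BL/6J mice of the same ages and were CD25+ and cKit+ (1 run, 78 cells). Rag1-/- cKit- cells came from B6.129S7-Rag1 tm1Mom mice, which cannot rearrange antigen receptor genes. They were CD25- and cKit-, with no CD24 gate, and came from postnatal days 0 to 2 (3 runs, 223 cells). B6 DN1d cells were sorted from C57BL/6J thymus with the gate and ages of the Tcrd-/- cells (3 runs, 223 cells). The capture run served as the replicate. The labels do not tie runs to animals, so p-values measure spread between runs, part of which may be technical. The limma tests also draw the spread of each assay toward that of the others, so no limma p-value rests on the spread of Smo alone. Since every run holds 1 group, run and group cannot be told apart. Rag1-/- and B6 DN1d cells differ in genotype, age and gate together.

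The deposited value is the threshold cycle (Ct), the PCR cycle at which the signal crosses a threshold, and a low Ct means much template. Reactions at 24 were taken as undetected. The level used here is 24 minus Ct, so that 1 unit is 1 cycle and an undetected reaction is 0. Gapdh was detected in all 610 cells, with a mean level of 14.2 to 15.6 per run. Gata3, a T lineage factor, was detected in 97.1% to 100% of the cells of every run, and the myeloid receptor Csf1r in none outside DN2, where it reached 2.56% of cells. In Rag1-/- cells, 0 of 223 held any of the 3 T cell receptor junction assays, which allows a share of up to 1.35%. The panel has no assay that checks the Tcrd allele. B6 DN1d run 3 stood apart in Bcl11b, a T lineage commitment factor found in 37.04% of its cells, against 90.3% and 85.7% in runs 1 and 2. It stood apart as far in the E12 assay of the E protein gene Tcf3, found in 86.4% of its cells, against 41.7% and 41.4%. Its Smo share did not stand apart.

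Smo was detected in nearly all DN2 cells, in most Tcrd-/- DN1d cells, in a minority of B6 DN1d cells and in few Rag1-/- cells. In the Tcrd-/- run it was found in 72 of 86 cells, or 83.7% (exact 95% interval 74.2% to 90.8%). In the DN2 run it was found in 77 of 78 cells, or 98.7% (93.1% to 99.97%). The Rag1-/- runs had 7 of 89, 1 of 52 and 3 of 82 cells with Smo, which is 7.87%, 1.92% and 3.66%. The B6 DN1d runs had 22 of 72, 18 of 70 and 25 of 81 cells, which is 30.6%, 25.7% and 30.9%. The highest Rag1-/- run lay below the lowest B6 DN1d run, and the Tcrd-/- and DN2 runs lay above every B6 DN1d run. These intervals cover counting error only.

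**Figure D1:**
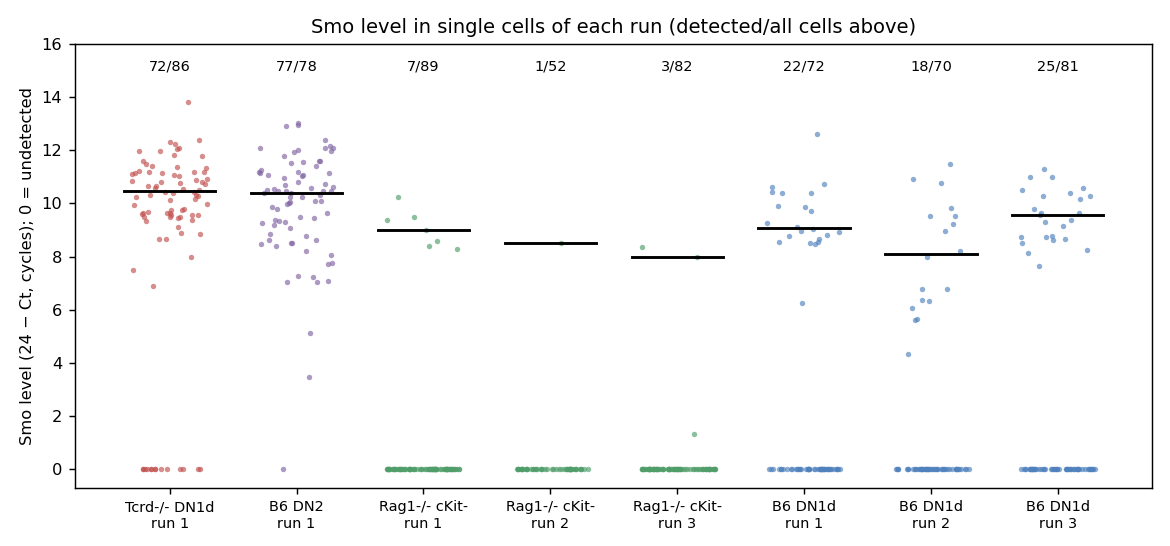
Smo level of each cell (24 minus Ct, in cycles, with undetected cells at 0) in the 8 runs, coloured by group. Black bars are medians of the detected cells and the counts above are detected over all cells. The runs differ mainly in how many cells sit at 0: 14 of 86 in Tcrd-/- DN1d and 1 of 78 in DN2.

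The differences in the share of Smo-detected cells were larger than the spread between runs in all 4 comparisons. Shares were compared as logits (natural log odds) with limma over the 47 assays found in any cell, with Benjamini-Hochberg adjustment. For Tcrd-/- and DN2, with 1 run each, the spread was taken from the 2 groups with 3 runs. In all these tests limma then drew it toward the spread of the other assays. That gave 20.0 total degrees of freedom, against 4 from the runs themselves, so the small p-values lean on the panel as a whole. The Tcrd-/- share was above the B6 DN1d share by 2.49 ± 0.51 logits (SE, adjusted p = 0.000393). DN2 was above B6 DN1d by 4.83 ± 0.51 logits (adjusted p = 5.0e-08). The Rag1-/- runs averaged 4.48% ± 3.06 and the B6 DN1d runs 29.04% ± 2.89 (SD, n = 3 each), a difference of -2.14 ± 0.36 logits (SE, limma adjusted p = 2.97e-05). DN2 was above Tcrd-/- by 2.34 ± 0.63 logits (adjusted p = 0.00271). An exact two-sided permutation test of the Rag1-/- against the B6 DN1d shares gave p = 0.1, the smallest that 3 runs against 3 allow.

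Such differences were common in this panel. In Tcrd-/- against B6 DN1d cells, 55.3% of assays passed the same test, and Smo had the 12th largest difference upward of 47. In DN2 against B6 DN1d it was 66% of assays, with Smo 8th. In Rag1-/- against B6 DN1d it was 59.6%, with Smo 8th from the lowest end. In DN2 against Tcrd-/- it was 68.1%. A pass in this panel was thus no rare event. The first 3 of these comparisons share the B6 DN1d runs as controls and are not independent of each other.

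The mean level over all cells, which counts undetected cells as 0, followed the shares. It was 8.73 cycles in Tcrd-/- and 9.89 in DN2. In the Rag1-/- runs it was 0.712, 0.163 and 0.215, and in the B6 DN1d runs 2.87, 2.06 and 2.94. By limma, Tcrd-/- cells were 6.10 ± 0.45 cycles above B6 DN1d (adjusted p = 0.000362, with 61.7% of assays called). DN2 cells were 7.27 ± 0.45 cycles above B6 DN1d (adjusted p = 0.000193, 57.4% called), and Rag1-/- cells stood at -2.26 ± 0.31 cycles against B6 DN1d (adjusted p = 0.00335, 55.3% called). DN2 and Tcrd-/- differed by 1.17 ± 0.55 cycles, which did not pass (limma adjusted p = 0.125, 95% interval -0.24 to 2.57, 51.1% called).

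In the cells that had Smo, its level did not differ beyond the spread between runs in any of the 4 comparisons. Detected cells averaged 10.4 cycles in Tcrd-/- (lowest 6.89, median 10.5, highest 13.8) and 10.0 in DN2 (3.46, 10.4 and 13.03). They averaged 9.05, 8.50 and 5.88 in the Rag1-/- runs, and 9.39, 8.02 and 9.52 in the B6 DN1d runs. Only 3 cells stand behind the mean of Rag1-/- run 3, and 1 of them had a level of 1.31. Over the 38 assays that could be tested this way, Tcrd-/- minus B6 DN1d was 1.45 cycles (95% interval -0.93 to 3.83, limma adjusted p = 0.404). DN2 minus B6 DN1d was 1.05 cycles (-1.33 to 3.43, adjusted p = 0.501), Rag1-/- minus B6 DN1d -1.17 (-2.85 to 0.51, adjusted p = 0.310) and DN2 minus Tcrd-/- -0.40 (-3.31 to 2.51, adjusted p = 0.864). These intervals are wide, so differences of 1 or 2 cycles in positive cells are not resolved. Few assays passed this test at all: 2, 4, 5 and 7 of the 38 in these 4 comparisons, in the order given. The split between Smo-detected and undetected cells was clear at the assay level: the median Ct of detected cells was 14.1, and 2 of 225 had a Ct of 20 or more.

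Cells with Smo held more other assays on average in every run, though by only 0.20 and 0.46 in Rag1-/- runs 1 and 3. In B6 DN1d, Smo-detected cells held 23.6, 25.3 and 22.3 other assays on average in the 3 runs, and undetected cells 18.3, 17.5 and 17.4. The difference was 6.00 ± 1.59 assays (SD, n = 3). In Tcrd-/- cells the means were 31.2 in Smo-detected and 24.1 in undetected cells. In DN2 the mean was 27.5 in Smo-detected cells, and the only undetected cell held 23. In Rag1-/- cells the means were 23.7, 25 and 24.7 in the few Smo-detected cells and 23.5, 21.5 and 24.2 in the others. Gapdh level hardly moved with Smo in B6 DN1d: it was 15.2, 14.1 and 14.8 in Smo-detected cells and 15.0, 14.2 and 14.6 in undetected cells. In Tcrd-/- it was 15.2 against 14.7, and in DN2 15.2 against 13.9 in the only undetected cell. In the Rag1-/- runs it was 15.2, 15.5 and 14.7, against 15.7, 15.1 and 14.8.

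At like numbers of other assays, the groups could be set side by side. Of cells with 25 to 29 other assays, Smo was detected in 19 of 22 Tcrd-/- cells, 51 of 51 DN2 cells, 5 of 84 Rag1-/- cells and 21 of 34 B6 DN1d cells. Of cells with 20 to 24, the counts were 0 of 4, 10 of 11, 5 of 106 and 19 of 60 in the same order of groups. Of cells with 30 or more, where most Tcrd-/- cells lay, they were 53 of 56, 16 of 16, 0 of 5 and 9 of 11. With this number as a term in a logistic model, the Tcrd-/- difference from B6 DN1d was 0.63 logits and no longer passed (limma adjusted p = 0.477). DN2 against B6 DN1d (3.46 logits), Rag1-/- against B6 DN1d (-2.93) and DN2 against Tcrd-/- (2.83) still did. The count of other assays includes genes of the Tgd17 programme, so it measures gene content as well as depth, and these cannot be told apart.

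**Figure D2:**
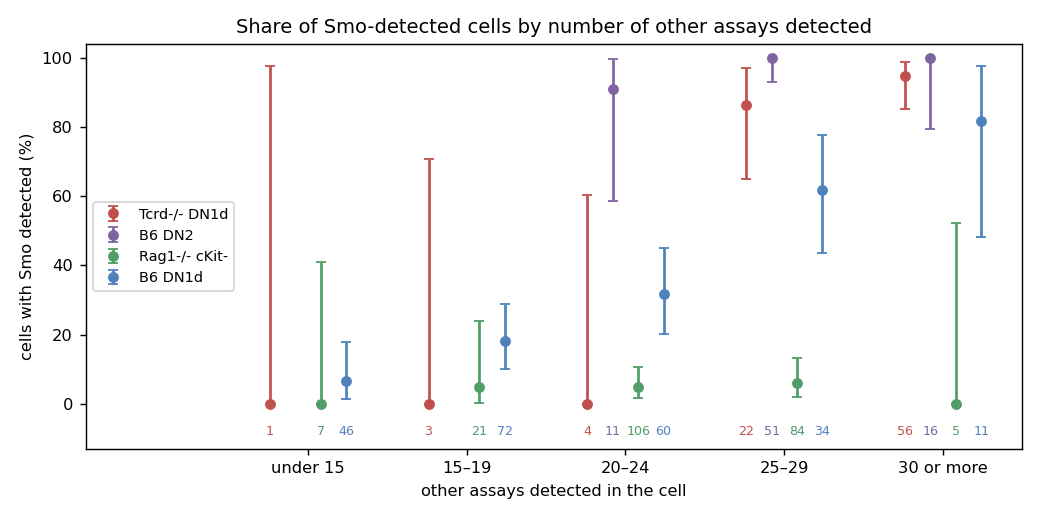
Share of Smo-detected cells (%) by the number of other assays found in the cell, for the 4 groups, with exact 95% intervals and the number of cells at the foot. In B6 DN1d the share climbs with that number, to 81.8% at 30 or more. In Rag1-/- it stays under 6% in every class.

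Sox13 is a transcription factor needed for Tgd17 development. In B6 DN1d, 17 of 36, 16 of 31 and 12 of 26 Sox13-detected cells had Smo, against 5 of 36, 2 of 39 and 13 of 55 Sox13-undetected cells. As a mean over runs this is 48.3% ± 2.89 against 14.2% ± 9.26 (SD, n = 3). In Tcrd-/- it was 72 of 83 against 0 of 3, and in DN2 69 of 69 against 8 of 9. In the Rag1-/- runs it was 2 of 10, 0 of 2 and 1 of 13 Sox13-detected cells, against 5 of 79, 1 of 50 and 2 of 69 undetected cells. B6 DN1d cells with Sox13 also held more assays in all, about 25 in each run (24.8, 24.9 and 25.0), against 15.7, 15.7 and 16.5 without it.

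**Figure D3:**
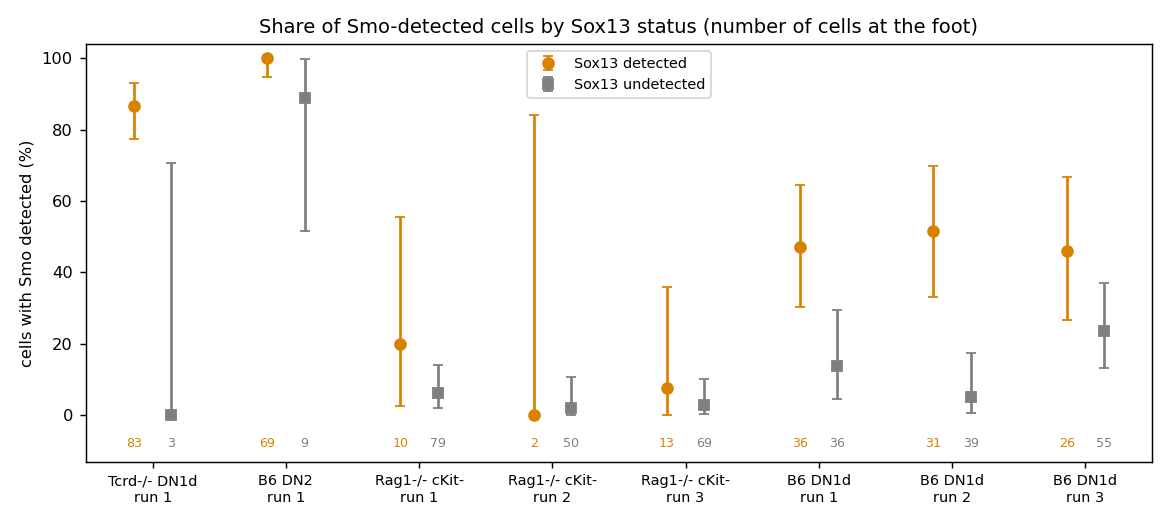
Share of Smo-detected cells (%) among Sox13-detected (circles) and Sox13-undetected cells (squares) of each run, with exact 95% intervals and the number of cells at the foot. In the 3 B6 DN1d runs, the Sox13-detected cells lie at 46.2% to 51.6% and the others at 5.13% to 23.6%.

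Among Sox13-detected cells alone, the groups still differed in Smo in part. DN2 was above B6 DN1d by 5.00 ± 0.80 logits (limma adjusted p = 0.00029, with 52.2% of 46 assays called) and above Tcrd-/- by 3.09 ± 0.98 (adjusted p = 0.0217, 39.1% called). Tcrd-/- was above B6 DN1d by 1.91 ± 0.80 logits, which did not pass by limma (adjusted p = 0.289). In that comparison 0% of assays were called, and 7 had an unadjusted p under 0.05. Rag1-/- against B6 DN1d stood at -1.59 ± 0.57 logits (adjusted p = 0.0571, 23.9% called). Only 25 Rag1-/- cells had Sox13, and the comparison passed without Rag1-/- run 2 (adjusted p = 0.0263). DN2 against Tcrd-/- no longer passed without B6 DN1d run 1 (adjusted p = 0.0537).

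Which genes were found in the same B6 DN1d cells as Smo was asked for 40 assays detected in 5% to 95% of those cells. The measure is the natural log odds ratio, 0 where Smo and the other gene are found independently. By limma, 40% of the assays (16) were found more often with Smo and 10% (4) less often, and each of the 20 went the same way in 3 of 3 runs. The median over all 40 was 0.84, so detection together was the rule in these cells. After adjustment for the number of other assays, 0 of 40 passed by limma and 5 had an unadjusted p under 0.05. In that fit limma gave all 40 assays the same SE, 0.55, so these p-values do not reflect the spread of each assay between runs. The adjusted means of all 20 kept their direction, but single runs did not always. Adjusted, Cd163l1 stood at -0.51, 1.12 and -0.24 in runs 1 to 3, and Sox13 at 0.82, 1.20 and -0.06. Myb (3.05, 1.87 and 0.23) and Csf2rb2 (-1.34, -1.17 and -2.49) kept their side in each run. With 2 runs left in the fit, 0 passed without run 1 (9 at an unadjusted p under 0.05), 6 without run 2 and 26 without run 3. Without run 1, Tcf7 stood at 1.95, Tox at 1.87 and Csf2rb2 at -2.60 (limma adjusted p = 0.156 each), against 1.84, 1.83 and -2.47 with all 3 runs.

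Myb, a transcription factor of blood progenitors and early thymocytes, had the largest log odds ratio, 2.51 ± 0.52 (SE, limma adjusted p = 0.0169). It was found in 95.5%, 94.4% and 56% of Smo-detected cells in runs 1 to 3, against 36%, 32.7% and 28.6% of undetected cells. Seen from the other side, Smo was found in 3.03% and 2.78% of the cells without Myb in runs 1 and 2, and in 21.6% in run 3. With the adjustment Myb stood at 1.72 (limma adjusted p = 0.0619, from the SE of 0.55 common to all assays). Run 3 gave the weakest link, 1.13, against 3.23 and 3.16 in runs 1 and 2.

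Pooled over the 3 runs, Smo was most often found in B6 DN1d cells that held Myb, with or without Sox13. B6 DN1d cells with both had Smo in 51.04% ± 0.904 (SD, n = 3), or 42 of 82 cells. Cells with Myb only had it in 10 of 21, cells with Sox13 only in 3 of 11, and cells with neither in 10 of 109. Run 3 held 8 of the 11 cells with Sox13 only. There Smo was in 3 of those 8, against 5 of 12 with Myb only and 9 of 18 with both. So few cells with Sox13 only do not resolve a difference from those with Myb only. In Tcrd-/-, Smo was found in 72 of 79 cells with both and in 0 of 4 with Sox13 only. In DN2 all 78 cells had Myb, the 1 without Smo included. In Rag1-/-, Myb was found in 1 of 11 Smo-detected and 13 of 212 undetected cells.

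Of the Tgd17 programme, 8 of 10 tested assays were found more often with Smo, against 16 of all 40. The median log odds ratio was 1.58 over the 10 and 0.84 over the 40. Sox13 stood at 1.80. Blk, a Src family kinase, stood at 1.68 and was found in 72.7%, 77.8% and 40% of Smo-detected cells, against 30%, 28.8% and 16.1% of undetected cells. The chemokine receptor Ccr9 (1.64), the transcription factor Maf (1.63), the cytokine receptor chain Il17re (1.70), the ETS factor Etv5 (1.54), the scavenger receptor Cd163l1 (1.44) and the E protein gene Tcf12 (1.39) were the other members that passed. Il7r, the interleukin 7 receptor, and Sox4, a relative of Sox13 by its HMG box, did not, at -0.88 and 0.72. None of the 8 passed after the adjustment. The adjusted median of this list was 0.56, against 0.22 for all 40 assays, and those of the T lineage list (0.54) and the cell cycle list (0.63) were close to it.

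Of the T lineage list, 3 of 7 tested assays passed, near the 40% of all tested assays, and none did after the adjustment. Tcf7, which encodes the early T cell factor TCF1, stood at 1.84 and was found in 86.4%, 88.9% and 88% of Smo-detected cells, against 52%, 48.1% and 48.2% of undetected cells, so the 3 runs were alike. The other 2, E12 (1.39) and E47 (1.26), are assays of 2 forms of 1 gene, Tcf3. For E12, whose share stood apart in run 3, the log odds ratios were 2.18, 1.36 and 0.63 in runs 1 to 3. Notch1, the receptor that starts the T cell programme, stood at 0.85 (limma adjusted p = 0.132) and Bcl11b at 0.39 (adjusted p = 0.450). Gata3 was found in too many cells to be tested, in 100% of Smo-detected cells in each run.

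Other assays that passed upward were Tox, a nuclear factor of lymphoid development (1.83), and Gzma, which encodes a granule protease (1.59). Tox was found in 81.8%, 88.9% and 88% of Smo-detected cells, against 42%, 50% and 50% of undetected cells. The rearranged gamma chain junction Vg2-Jg1 also passed (1.52). Smo was found in 17 of 34, 12 of 21 and 14 of 37 cells with that junction, against 5 of 38, 6 of 49 and 11 of 44 cells without it. In Tcrd-/- it was 62 of 67 against 10 of 19. The junction was found in no DN2 or Rag1-/- cell. Tox was the 1 of 4 innate lymphoid assays that passed, against 40% of all assays. Of the cell cycle list 0 of 4 passed, with a median log odds ratio of 0.91. Its largest single values were in run 3, where Cdk6 stood at 2.49, Dna2 at 1.77 and Mcm2 at 1.56.

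The 4 assays found less often with Smo were led by Csf2rb2, a subunit of the interleukin 3 receptor, at -2.47 ± 0.42 (SE, limma adjusted p = 0.0169). It was in 0% of Smo-detected cells in all 3 runs, against 16%, 17.3% and 30.4% of undetected cells. Gp49a, a receptor of myeloid and mast cells, stood at -2.15, Cdh1, which encodes E-cadherin, at -1.90, and Spi1, which encodes the myeloid and progenitor factor PU.1, at -1.51. Spi1 rests on few cells: it was found in 0 Smo-detected cells and in 2, 4 and 10 undetected cells of runs 1 to 3. Its log odds ratios there were -0.84, -1.23 and -2.44. Of B6 DN1d cells with any of Csf2rb2, Gp49a and Spi1, 1 of 44 had Smo, against 64 of 179 without them. This count restates the calls of the 3 assays in the same cells, pooled over runs, and is no further evidence. In DN2, where Spi1 was found in 80.8% of cells, the picture was another: Smo was found in 63 of 63 cells with any of the 3 and in 14 of 15 without. In B6 DN1d these cells held fewer assays, 14.3, 17 and 15.9 on average, against 21.1, 20.4 and 20.5 in the others, while their Gapdh level was alike (15.0, 14.2 and 14.7, against 15.1, 14.2 and 14.7).

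**Figure D4:**
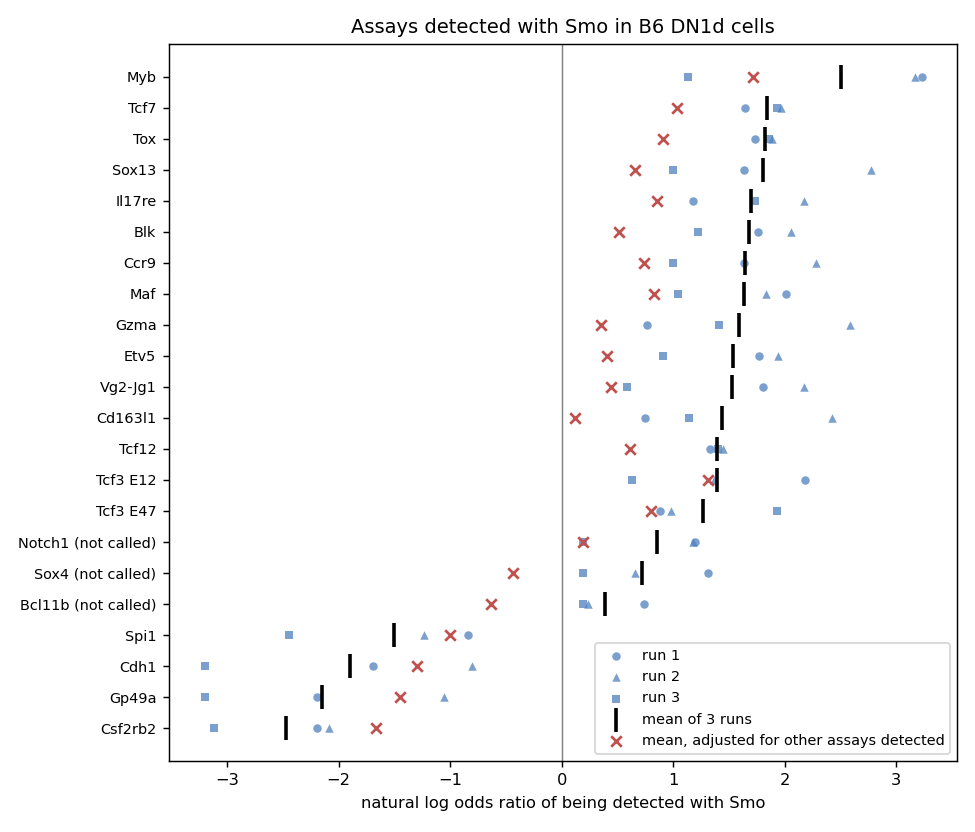
Natural log odds ratio of being found in the same B6 DN1d cell as Smo, for 22 assays, per run (blue), as the mean of 3 runs (black bar) and as the mean adjusted for the number of other assays (red cross). Myb is highest at 2.51 and Csf2rb2 lowest at -2.47. The adjusted means of the called assays keep their side of 0 and lie nearer to it.

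In the Tcrd-/- run, the 14 cells without Smo were the minority, and the shares are given with no test. The largest gaps were in Gzma (86.1% of Smo-detected and 21.4% of undetected cells), Blk (98.6% and 42.9%), Ccr9 (95.8% and 42.9%), Vg2-Jg1 (86.1% and 35.7%), and Myb and Tcf7 (100% and 50% each). Bcl11b was in 100% and 92.9%. The undetected cells also held about 7 fewer assays (7.15). The only DN2 cell without Smo held 23 assays, the fewest in DN2 (1 other cell held as few), with a Gapdh level of 13.9 and no Sox13.

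The 11 Rag1-/- cells with Smo, pooled over 3 runs, are too few for more than their counts. Il17re was found in 6 of them and Sox13 in 3, against 71 and 22 of the 212 others. Sox4 was found in 7, against 183 of 212, and Egr2, a gene induced by antigen receptor signals, in 1, against 61 of 212. Bcl11b was found in 11, against 178 of 212. Etv5 was found in 0 of 11, against 8 of 212, and Cpa3 and Vg2-Jg1 in 0 of all 223.

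The assays whose shares lay nearest to those of Smo over the 8 runs were Cpa3, Myb and Sox13. Cpa3, a carboxypeptidase of mast cells and early progenitors, differed from Smo by 7.76 percentage points on average, Myb by 9.36 and Sox13 by 9.97. Etv5 (15.0 points) and Syk, a kinase of antigen receptor signalling (18.4 points), followed. Cpa3 was found in 72.1% of Tcrd-/- and 100% of DN2 cells, in none of the Rag1-/- runs, and in 18.1%, 18.6% and 14.8% of B6 DN1d cells. Etv5 parted from Smo in DN2, at 7.69% of cells. Of the 47 other assays, 3 had their group means in the same order as Smo (DN2, Tcrd-/-, B6 DN1d, Rag1-/-, from high to low): Cpa3, Myb and Rag2, a recombinase gene. A like share over runs need not mean the same cells. In B6 DN1d, Cpa3 had a mean log odds ratio with Smo of 0.06 ± 0.55 (SE). That mean covers opposed runs (0.45, 1.15 and -1.42 in runs 1 to 3), so it cannot tell whether the 2 share cells. In Tcrd-/-, Cpa3 was found in 79.2% of Smo-detected and 35.7% of undetected cells.

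**Figure D5:**
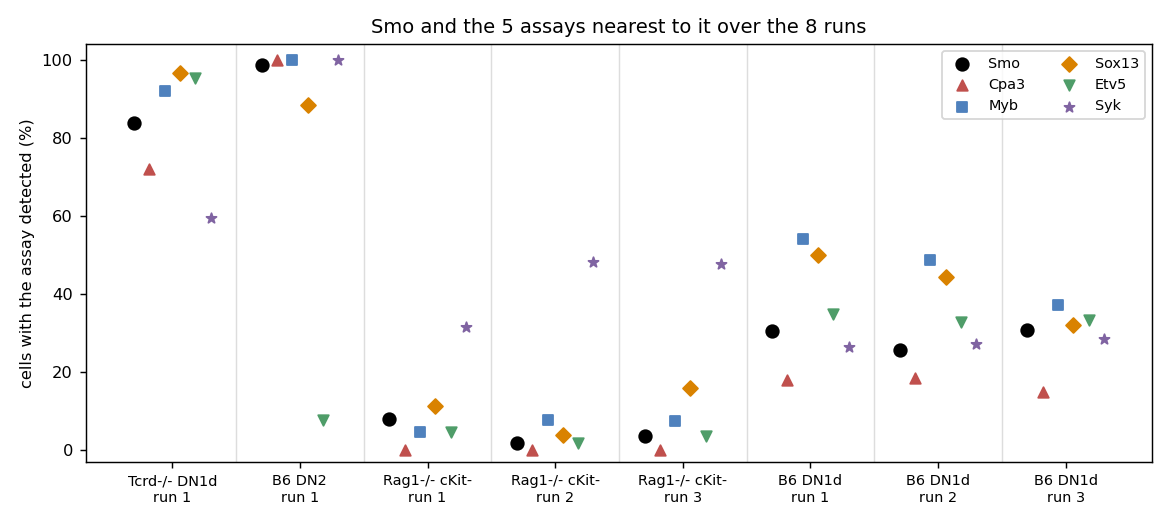
Share of cells (%) with Smo (black) and with each of the 5 assays nearest to it, in the 8 runs. All 6 are low or moderate in B6 DN1d, and Etv5 falls away from the rest in DN2, at 7.69%, while Syk stays at 31.5% to 48.1% in Rag1-/-.

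Among Smo-detected cells, its level moved with that of other genes most in DN2, which is given as a description across cells of 1 run. There Spearman's rho of Smo level was 0.81 with Mcm2, a DNA replication gene (75 cells), 0.76 with Gapdh (77 cells), 0.70 with Cdk6, a cell cycle kinase (77 cells), and 0.67 with Myb (77 cells). These cells share a run, and the reference gene Gapdh was among the genes that moved most with Smo. In Tcrd-/-, rho was 0.51 with Gata3, 0.49 with Sox13 and 0.32 with Gapdh (72 cells each).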

How the data were processed

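Per the labels' protocols, cells were captured and lysed on a Fluidigm C1, and complementary DNA went through 18 cycles of preamplification and 30 cycles of EvaGreen PCR. The authors deposited 1 Ct value per assay and cell, a PCR cycle score that was not normalised. How Ct was called, and who set the ceiling of 24, the sources used here do not give. Of 29280 reactions, 50.5% stood at 24. No cells were left out, and no 2 cells held identical values. Runs were read from each cell's title.

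Each assay had 1 value per run: the mean level, the natural log odds ratio with Smo, or the share detected as an empirical logit, with 0.5 added per side. The fits used limma (version 3.58.1, under R 4.3.3), with all 8 runs in 1 fit of group means (4 residual degrees of freedom), or for log odds ratios the 3 B6 DN1d runs (2 residual), with Benjamini-Hochberg adjustment and a threshold of 0.05. The spread of each assay was drawn toward that of the others by the eBayes step of limma. Total degrees of freedom were 20.0 for shares over all cells, 4.97 for levels and 7.64 for log odds ratios. Single shares have exact (Clopper-Pearson) 95% intervals, and a count of 0 allows 3 counts. Tables were made in Python 3.11.15 with pandas 2.3.3, numpy 2.4.6 and scipy 1.17.1, and figures with matplotlib 3.10.9. The steps were tested on simulated data with no run effect, so that check does not cover differences between runs beyond sampling of cells.

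Smo, the gene lists, the tests and the alternatives were chosen with earlier results of these data known. Named assays were those past the threshold in co-detection, a fixed set (Sox13, Sox4, Maf, Blk, Tcf7, Bcl11b, Gata3, Notch1, Myb, Gapdh), the 5 largest gaps in the other groups and the 5 nearest to Smo. Cdk6, Dna2, Mcm2, Il7r, Rag2, Csf1r, Spi1 in DN2, Cpa3 in Tcrd-/-, and Cpa3 and Etv5 in Rag1-/- were added after their values were seen. 1 more gene enters the counts and is not reported here. No sequence is printed.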

Additional observations from a re-analysis of the deposited data

How the results depend on the processing

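Detection limits at a Ct of 22 or 20, another transformation, leaving out cells with fewer than 10 assays, leaving out a run, or fitting only the groups compared left the tests of the Smo share over all cells on their side of the threshold. The last could not be run for DN2 against Tcrd-/-, with 1 run each. Adjustment for the number of other assays lowered Tcrd-/- against B6 DN1d to 0.63 logits (adjusted p = 0.477), and no other such test was lost. Among Sox13-detected cells, Rag1-/- against B6 DN1d passed at a Ct below 22 (-1.95) and with the adjustment (-2.06). Leaving out a run gave -1.80 to -1.35 there, with a pass without Rag1-/- run 2 (adjusted p = 0.0263), and 3.09 in each case for DN2 against Tcrd-/-, which missed without B6 DN1d run 1 (adjusted p = 0.0537). Level over Smo-detected cells only gave 1.45, 1.05 and -1.17 cycles for Tcrd-/-, DN2 and Rag1-/- against B6 DN1d, none passing, and the sign turned to -0.40 for DN2 against Tcrd-/-. With the median over all cells, Rag1-/- against B6 DN1d was 0 cycles, since both medians are 0, and DN2 against Tcrd-/- passed at 0.14, where many assays have a median of 0 and no spread.

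The count of 20 assays linked to Smo fell to 0 with the adjustment, to 0 without B6 DN1d run 1 (9 at an unadjusted p under 0.05, with Tcf7 at 1.95 and Csf2rb2 at -2.60 in the 2 runs left), and to 6 without run 2, and reached 26 without run 3. It was 20 or 21 under the other alternatives. The adjusted fit and the fit without run 2 used a common SE across assays, so their counts do not rest on the spread of each assay. Bcl11b and Sox4, not called, turned to -0.64 and -0.44 with the adjustment. The cause was not tested. With 1 run each, Tcrd-/- and DN2 have no spread of their own.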
